A study of Caenorhabditis elegans with 4 samples.

Results

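Transfer RNA (tRNA) genes of Caenorhabditis elegans held 409 of the 25493 regions of the pooled ChIP-seq list in their neighbourhood. A region was counted where its summit, the base of highest signal, lay between 1000 bp upstream and 200 bp downstream of the 5′ end of one of the 612 tRNA genes that Ensembl annotates on the nuclear chromosomes. The rule uses position alone, so the signal of these regions did not choose them. Chromatin immunoprecipitation with sequencing (ChIP-seq) recovers DNA bound by a protein, here CES-1, a zinc finger transcription factor of the Snail family, through its tag. The series has 1 group of 4 biological replicates, all whole worms at the L4 larval stage, with the sexes pooled and no age stated. All 4 came from strain OP174, which carries the mutation unc-119(ed3) and the transgene insertion wgIs174, which holds ces-1::TY1 EGFP FLAG, a tagged copy of the gene, together with unc-119 as the rescuing marker. For replicates 1 and 2 the labels give sizes of 150 to 350 bp, and for replicates 3 and 4 they name microtip sonication. There is no second condition and no strain without the tag among the samples, so every comparison below sets regions against other regions within the same libraries. All cell types of the larva are mixed, and more cells with bound protein cannot be told apart from more binding per cell.

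A tRNA gene is transcribed by RNA polymerase III. Its promoter lies within the gene, in the A box and the B box, which the factor TFIIIC recognises and which also encode the D and T loops of the tRNA. TFIIIC places TFIIIB, which contains the TATA-binding protein, just upstream of the start, and a run of T residues after the gene ends transcription. Active tRNA genes have open chromatin and are known to recur in ChIP-seq lists of unrelated factors.

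Of the 35 members that overlap a peak of the authors' reproducible list, 27 had their summit within 100 bp of a tRNA gene body. The sequences of 8 such genes show where, and in what flanks. They run 5′ to 3′ on the strand of the tRNA gene, from 100 bp before to 30 bp after it, in WBcel235 (ce11) coordinates, read from the RefSeq genome of that build. Capitals mark the named tRNA gene only. F46G11.t1 (tRNA-Pro, chrX:5801372-5801573, plus strand) and ZK899.t1 (tRNA-Pro, chrX:9467699-9467900, minus strand) are copies of 1 gene sequence on X in unrelated flanks. C33G3.t2 (tRNA-Lys, chrX:14063916-14064118, minus strand) and T23F1.t1 (tRNA-Lys, chrV:15464986-15465188, plus strand) are copies of another, on X and on V; the second was added after its values were seen, as the autosomal copy. The other 7 come from the 10 strongest named members left once members over 100 bp from a tRNA body, and genes with a copy on a chromosome whose sequence is not printed, are set aside. F15G9.t2 (tRNA-Ala, chrX:9743647-9743848, plus strand), C40H5.t1 (tRNA-Leu, chrX:11757801-11758014, minus strand), R11.t1 (tRNA-Tyr, chrX:16209739-16209952, minus strand) and C04A11.t1 (tRNA-Leu, chrX:13665455-13665703, plus strand), the longest gene shown at 119 bases, complete the set. The F15G9.t2 run begins inside a neighbouring alanine gene, F15G9.t1, whose end is printed in lower case, and its summit is base 36 of the run.
F46G11.t1: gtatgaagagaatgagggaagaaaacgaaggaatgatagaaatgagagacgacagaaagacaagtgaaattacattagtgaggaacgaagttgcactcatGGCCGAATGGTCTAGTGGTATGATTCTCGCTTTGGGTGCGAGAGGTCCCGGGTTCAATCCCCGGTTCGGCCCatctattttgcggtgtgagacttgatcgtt
ZK899.t1: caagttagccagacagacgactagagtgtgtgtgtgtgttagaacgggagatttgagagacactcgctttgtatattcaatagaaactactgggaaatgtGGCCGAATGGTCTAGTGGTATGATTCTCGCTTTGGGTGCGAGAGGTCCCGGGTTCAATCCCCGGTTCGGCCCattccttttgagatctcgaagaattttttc
C33G3.t2: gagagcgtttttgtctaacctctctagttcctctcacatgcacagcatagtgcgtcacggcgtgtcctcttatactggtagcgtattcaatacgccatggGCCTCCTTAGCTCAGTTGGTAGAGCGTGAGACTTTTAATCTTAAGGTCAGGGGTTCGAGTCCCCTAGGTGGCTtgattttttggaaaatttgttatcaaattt
T23F1.t1: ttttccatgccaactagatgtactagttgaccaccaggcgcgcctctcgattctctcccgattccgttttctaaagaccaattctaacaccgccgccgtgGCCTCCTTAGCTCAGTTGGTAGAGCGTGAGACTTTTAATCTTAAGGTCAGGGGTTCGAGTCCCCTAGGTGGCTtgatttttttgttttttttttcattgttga
F15G9.t2: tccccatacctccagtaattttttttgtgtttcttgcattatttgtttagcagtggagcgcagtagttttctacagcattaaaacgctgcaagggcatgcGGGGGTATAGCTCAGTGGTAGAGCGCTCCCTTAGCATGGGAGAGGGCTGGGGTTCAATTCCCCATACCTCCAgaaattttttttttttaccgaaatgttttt
C40H5.t1: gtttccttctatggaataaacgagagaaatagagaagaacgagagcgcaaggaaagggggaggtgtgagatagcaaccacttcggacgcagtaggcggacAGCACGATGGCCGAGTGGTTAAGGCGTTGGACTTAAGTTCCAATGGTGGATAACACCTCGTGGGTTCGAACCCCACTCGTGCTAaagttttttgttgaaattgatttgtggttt
R11.t1: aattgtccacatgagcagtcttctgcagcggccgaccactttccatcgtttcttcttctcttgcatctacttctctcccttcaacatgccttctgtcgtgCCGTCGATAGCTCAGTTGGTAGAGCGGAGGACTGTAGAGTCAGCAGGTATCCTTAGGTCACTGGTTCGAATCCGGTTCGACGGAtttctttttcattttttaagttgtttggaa
C04A11.t1: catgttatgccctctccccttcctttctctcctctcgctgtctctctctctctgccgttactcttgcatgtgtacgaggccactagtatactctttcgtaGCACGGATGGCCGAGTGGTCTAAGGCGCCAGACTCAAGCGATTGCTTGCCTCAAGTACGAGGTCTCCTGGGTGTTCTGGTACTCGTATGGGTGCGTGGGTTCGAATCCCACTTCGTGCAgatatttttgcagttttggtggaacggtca

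Each of these genes holds 1 match to the B box, searched as GTTCGANNC or GTTCAANNC, on its own strand. In C40H5.t1 an overlapping match lies on the other strand. In the 2 proline genes it spans bases 52 to 60 of the gene, and in C04A11.t1 bases 99 to 107. The summit of F46G11.t1 falls on base 7 of the printed run, at the upstream edge of what is shown, while that of ZK899.t1 falls on base 99, just before the same gene sequence begins. In C33G3.t2 the summit is base 125 and in T23F1.t1 base 168, both within the capitals. T runs follow the genes: TTTT occurs within 20 bp after the end of 602 of the 612 tRNA genes, 273 of 276 on X and 329 of 336 on autosomes. The B box occurs within 587 of the 612 genes, 97.1% of those on X and 94.9% of those on autosomes.

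In the pooled list, members had a median signal of 18.7, with quartiles of 13.3 and 26.6 and a range of 10.2 to 126.4, against a median of 14.2 over the other nuclear regions. Signal is the authors' score, on a scale that is not stated, and it is compared only within a list. Of the 409, 35 (8.56%) overlapped by at least 1 bp a peak of the deposited list that passed the irreproducible discovery rate (IDR) procedure, which keeps peaks that rank alike between replicates. Over all 25466 nuclear pooled regions the figure was 4.45%. In 33 of the 35, the IDR peak had the same summit. The other 2, near K02A4.t2 and F27D9.t1, had signals of 15.1 and 17.1 and overlap a peak whose summit lies elsewhere. The lowest signal in the IDR list was 44.2. Just under it came members near T01B4.t1 (43.9), R04A9.t1 (43.3) and K08E7.t1 (43.2), and just above it those near F09B9.t1 (45.0) and W07G4.t1 (45.4). No member above 43.9 lacked an IDR overlap. Apart from K02A4.t2 and F27D9.t1, overlap among members was thus a cut on pooled signal. In the contrasts below, IDR overlap and pooled signal are therefore not separate results.

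The strongest member lay 94 bp upstream of F46G11.t1, at X:5801206-5801549, with a pooled signal of 126.4. Its library signals were 29.2, 37.5, 19.6 and 36.3 in replicates 1 to 4, each scored on its own scale, and its ranks among that library's nuclear regions were 154, 135, 61 and 51. It was among the 200 strongest regions of every library. A second tRNA gene has it in its window too.

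The region at C33G3.t2 (X:14063822-14064165, pooled signal 112.2) peaked inside the gene, 24 bp from its 5′ end. Its signals were 21.1, 24.9, 25.5 and 33.7, at ranks 375, 437, 27 and 58. The region 50 bp upstream of the glutamate gene M02F4.t2 (pooled signal 103.5) ranked 599, 277, 288 and 29, and the one 65 bp upstream of F15G9.t2 (94.4) ranked 185, 212, 470 and 357. These 4 leading regions, all on X, were among the 2000 strongest of all 4 libraries. So were those named by F41D9.t3 (Asn, 76.0), C28G1.t1 (Glu, 65.3), E01H11.t1 (Met, 63.0), T10B10.t1 (Gly, 46.7) and C06E4.t1 (Gln, 52.0), the last on IV. That makes 9 members (2.20%), against 1.3% of all nuclear pooled regions. The summits named by E01H11.t1, T10B10.t1 and C06E4.t1 lay over 100 bp from any tRNA gene body.

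Other strong members were not among the 2000 strongest in every library. The region 6 bp upstream of the lysine gene W03G11.t1 had a pooled signal of 82.4, with ranks of 95, 780 and 7304 in replicates 1, 2 and 4 and no region in replicate 3. The tyrosine gene R11.t1 (67.6) ranked 385, 1233, 4815 and 212, and C40H5.t1 (71.5) ranked 513, 491, 2534 and 689. ZK899.t1 (59.6) had no region in replicate 1 and ranks of 435, 124 and 306 in the others. Of the 25 strongest IDR-overlapping members, 21 were on X.

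**Figure D1:**
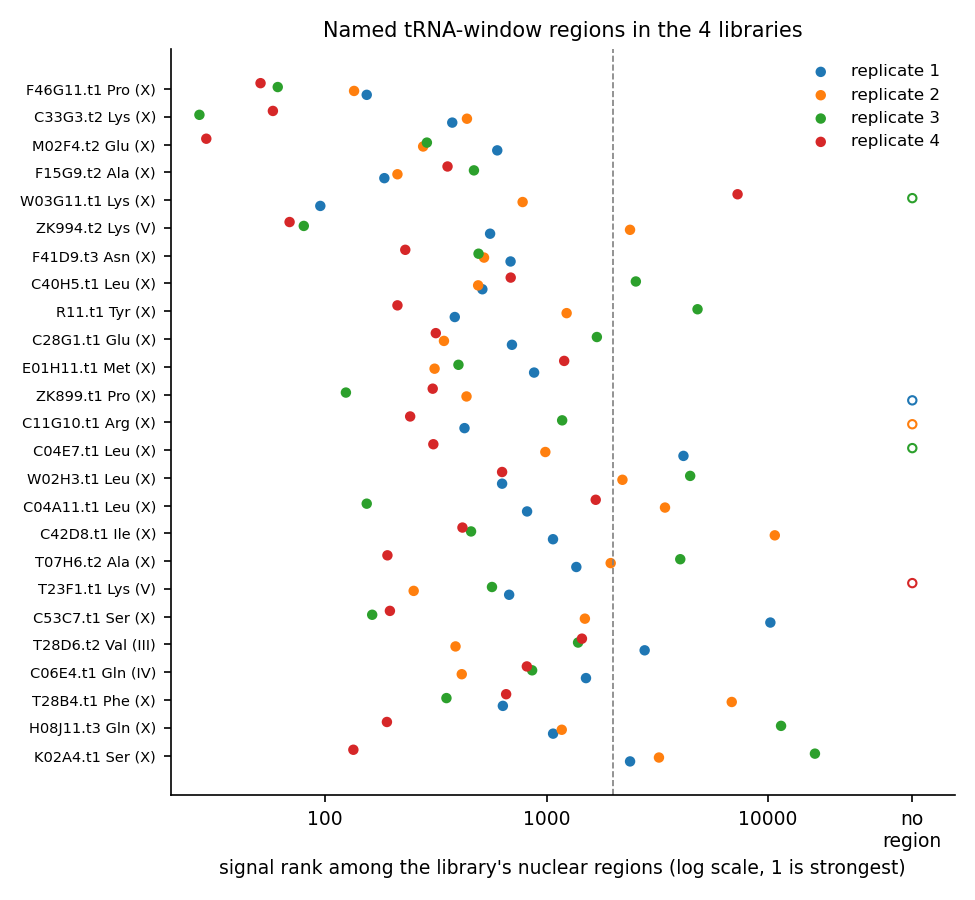
Signal rank of the 25 strongest IDR-overlapping tRNA-window regions (rows, named by the nearest tRNA gene, its amino acid and chromosome) in the 4 libraries (log axis, 1 is the strongest, open circles mark libraries with no overlapping region, dashed line at rank 2000). F46G11.t1 lies at ranks 51 to 154, while W03G11.t1 runs from 95 to no region.

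The 4 autosomal regions among these 25 were of different kinds. The strongest, at ZK994.t2 on V (78.2; ranks 556, 2385, 80 and 69), lay 934 bp upstream of that lysine gene and 9 bp upstream of the annotated 5′ end of the snoRNA gene ZK994.7, a much closer gene. T23F1.t1 on V (52.8) peaked inside its tRNA gene, with ranks of 678, 251 and 567 and no region in replicate 4. T28D6.t2 (Val) on III (52.6) peaked 49 bp from the nearest tRNA body, at ranks 2777, 388, 1389 and 1446. C06E4.t1 on IV (52.0) peaked 159 bp upstream, at ranks 1508, 414, 861 and 815. The remaining autosomal members that overlap an IDR peak were near B0491.t1 on II (47.8) and W07G4.t1 on V (45.4). Of these 6 autosomal members, only T23F1.t1 and T28D6.t2 had their summit within 100 bp of a tRNA gene body.

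The summits gathered on the genes. Of the 409, 225 (55.0%) lay within 100 bp of the 5′ end, a span that is 16.7% of the window, and 81 (19.8%) lay 500 to 1000 bp upstream, which is 41.7% of it. Summits inside a tRNA gene body numbered 96, and 262 (64.1%) were within 100 bp of one. These near members had a median signal of 21.9, against 14.7 for the 147 farther ones, and 27 of the 262 (10.3%) overlapped an IDR peak, against 8 of 147 (5.44%).

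**Figure D2:**
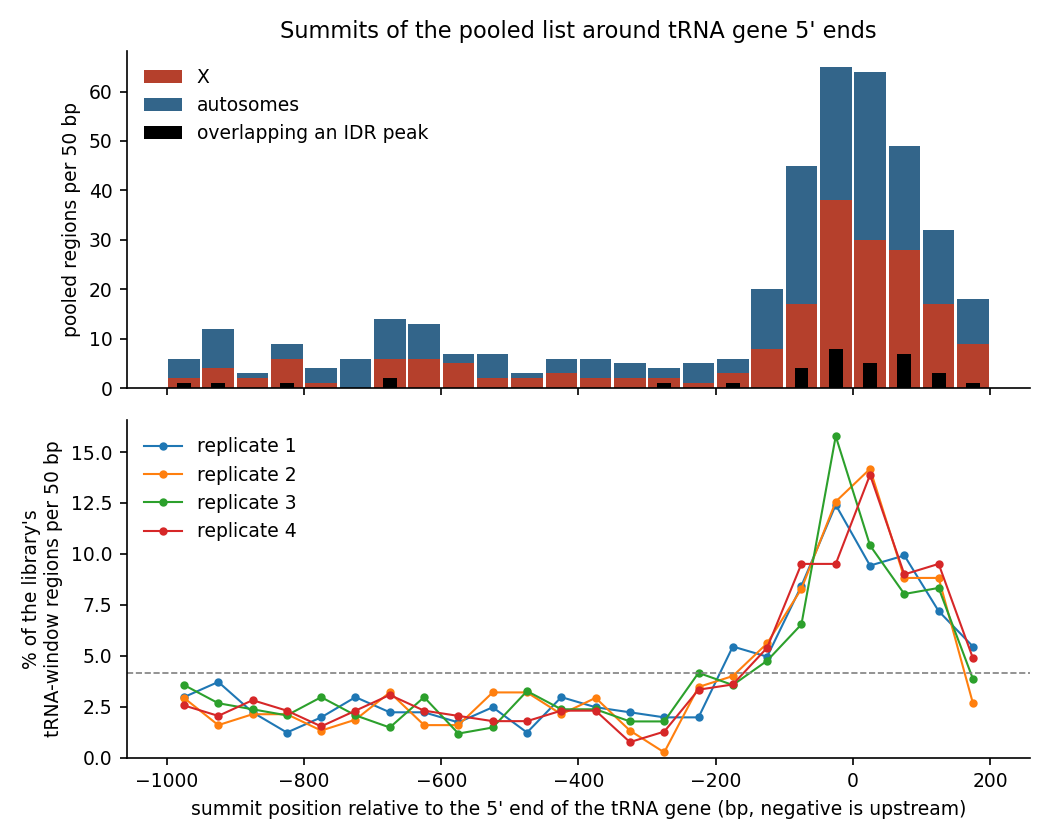
Position of summits around the 5′ end of the nearest tRNA gene in bins of 50 bp, as counts of pooled regions on X and autosomes (top, black bars overlap an IDR peak) and as the percent of each library's own tRNA-window regions (bottom, dashed line is an even spread). All 4 libraries rise between 100 bp upstream and 150 bp downstream of the 5′ end.

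Each library gave the same picture from its own regions. Of its 30000 regions, 403, 374, 336 and 389 had a summit in a tRNA window in replicates 1 to 4. Within 100 bp of the 5′ end lay 41.7% ± 1.73 (SD, n = 4) of them, while in the windows of protein-coding genes 19.7% ± 0.96 of regions lay that close to their gene's 5′ end. The difference was positive in 4 of 4 libraries (22.0 ± 2.39 percentage points; exact sign-flip permutation test over libraries, two-sided, p = 0.125, the smallest that 4 libraries can give; Benjamini-Hochberg adjusted over 9 tests 0.161). No test of this kind over 4 libraries can reach 0.05. Regions within 100 bp of a tRNA body had a median signal percentile of 74.9 ± 1.29 in their library, and the farther ones 55.5 ± 0.95 (difference 19.5 ± 2.24, positive in 4 of 4, exact p = 0.125, adjusted 0.161). The near and far percentiles did not overlap between libraries.

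As a class, tRNA-window regions ranked above the rest of the list. Their median percentile was 64.6, 63.6, 65.4 and 64.4 in replicates 1 to 4, a mean of 64.5 ± 0.73 against 49.8 for all other nuclear regions (difference 14.7 ± 0.71, positive in 4 of 4, exact p = 0.125, adjusted 0.161). They made up 2.95%, 2.3%, 2.5% and 3.45% of the 2000 strongest regions of replicates 1 to 4, and 1.14% ± 0.09 of the rest (difference 1.66 ± 0.50 percentage points, positive in 4 of 4, exact p = 0.125, adjusted 0.161). Put the other way, 14.6%, 12.3%, 14.9% and 17.7% of the tRNA-window regions were among the 2000 strongest of their library, where 6.67% of nuclear regions are in each library. Replicates 1 and 2 and replicates 3 and 4, the pairs that the labels describe differently, had overlapping shares. In tRNA windows lay 1.34% and 1.25% of nuclear regions in the first pair and 1.12% and 1.297% in the second (exact permutation p = 0.667, smallest possible 0.333).

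**Figure D3:**
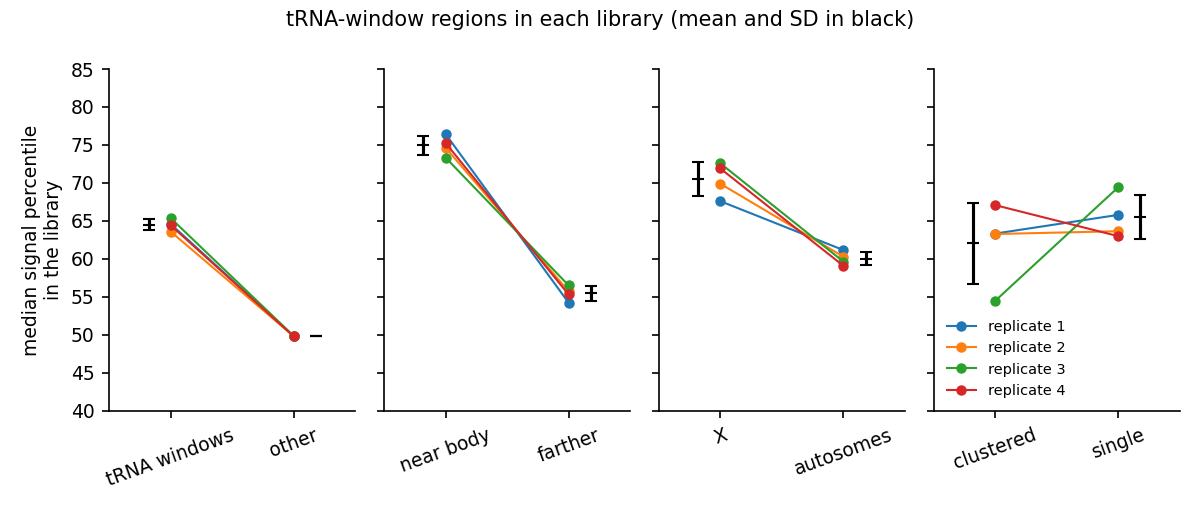
Median signal percentile in each library (lines join the values of 1 library, black marks give mean and SD over 4) for tRNA-window against other nuclear regions, near against farther regions, X against autosomes, and clustered against single tRNA genes. The first 3 contrasts fall in every library, and the last does not keep a direction.

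Chromosome X carried most of the strong members. X holds 276 of the 612 tRNA genes (45.1%), 196 of the 409 members (47.9%) and 29 of the 35 members that overlap an IDR peak (82.9%), while 20.6% of all nuclear pooled regions are on X. On X, 29 of 196 members (14.8%, 95% Clopper-Pearson interval 10.1 to 20.6) overlapped an IDR peak, where 5.5% of all X regions did. On the autosomes 6 of 213 members (2.82%, 1.04 to 6.03) did, where 4.18% of all autosomal regions did. These intervals cover counting error only. The shares were 0 of 36 on I (upper bound 9.74%), 1 of 41 on II, 1 of 45 on III, 1 of 42 on IV and 3 of 49 on V. With so few on each autosome, differences between autosomes cannot be resolved. Median signals were 18.1, 18.7, 18.1, 15.6 and 14.8 on I to V and 21.1 on X. Among other nuclear regions the medians were 14.4 on X and 14.1 on autosomes. More X genes also had a member at all, 194 of 276 (70.3%) against 192 of 336 (57.1%).

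**Figure D4:**
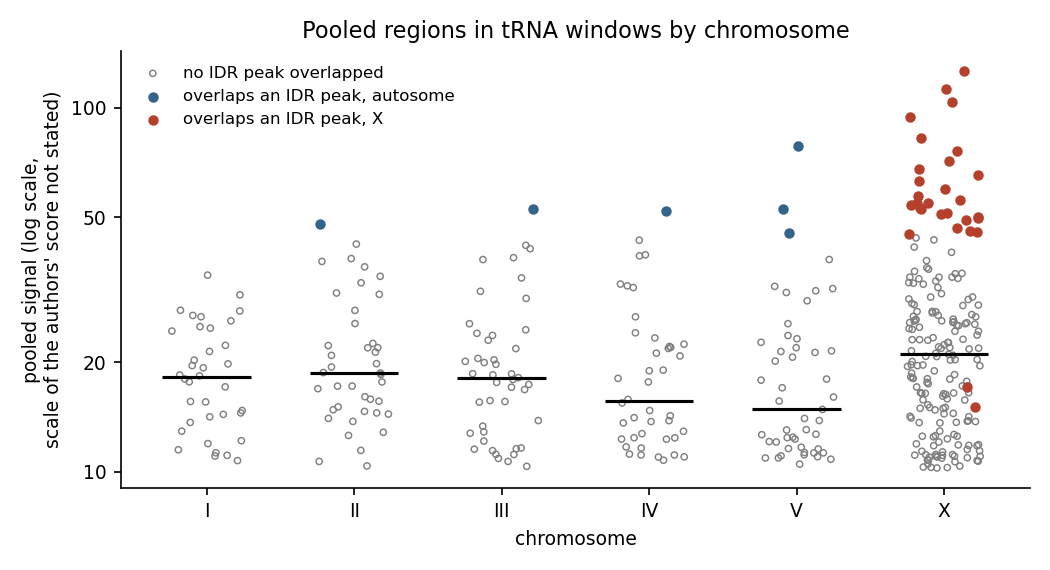
Pooled signal (log axis) of each tRNA-window region by chromosome, with medians as black lines and filled points for regions that overlap an IDR peak. The medians run from 14.8 on V to 21.1 on X, and the 29 filled points on X include the 5 strongest regions.

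The split by distance was as follows. Of 134 near members on X, 25 (18.7%) overlapped an IDR peak, and of 128 near members on autosomes 2 (1.56%) did. Farther out, the counts were 4 of 62 on X and 4 of 85 on autosomes. Median signals were 24.8 and 20.02 for near members on X and autosomes, and 16.2 and 14.4 for far ones.

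In the libraries, the median percentile of tRNA-window regions was 67.6, 69.9, 72.6 and 71.9 on X and 61.2, 60.3, 59.6 and 59.1 on autosomes in replicates 1 to 4. The groups did not overlap, and the difference was 10.4 ± 3.09 (positive in 4 of 4, exact sign-flip permutation p = 0.125, adjusted 0.161). Among other nuclear regions X also ranked higher, by 2.69 ± 1.06, and the tRNA difference less this one was 7.76 ± 3.87, positive in 4 of 4 (exact p = 0.125). Among the 2000 strongest regions were 19.7%, 14.4%, 25.4% and 26.6% of the tRNA-window regions on X and 10%, 10.3%, 7.58% and 8.06% of those on autosomes, a difference of 12.5 ± 6.89 percentage points (positive in 4 of 4, exact p = 0.125, adjusted 0.161). For other regions these shares were 7.63% ± 0.31 on X and 6.31% ± 0.11 on autosomes. Single autosomes varied: in replicate 1 the percentile was 73.0 on I and 68.6 on IV, both above X, and II ran from 49.1 to 69.8 over the libraries. All libraries were compared with 1 control library by the authors, the sexes are pooled, and the X content of that control and of the worm pools was not tested.

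Copies of the same tRNA gene allow this contrast among the gene sequences that X and autosomes share. The 612 genes have 200 distinct sequences, of which 43 occur both on X and on autosomes, in 408 genes. A region among the 2000 strongest had its summit within 100 bp of 15.1%, 10.3%, 14.1% and 20.5% of the 185 X copies in replicates 1 to 4, and of 5.38%, 5.38%, 2.69% and 3.14% of the 223 autosomal copies. The difference was 10.9 ± 5.16 percentage points, with no overlap between the groups (positive in 4 of 4, exact p = 0.125, adjusted 0.161). Copies were pooled over sequences whose split between X and autosomes differs, so these shares were not matched by sequence. Clustered genes can share a region; among the genes with no other tRNA gene within 2000 bp, 86 on X and 138 on autosomes, the shares were 17.2% ± 5.80 and 3.44% ± 1.49.

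In the pooled list, 33 of these sequences had a near region at a copy on X and at a copy on an autosome. The median signal was higher on X in 25 of the 33, and the median difference was 6.49. Near regions numbered 98 on X, of which 18 overlapped an IDR peak, and 95 on autosomes, of which 2 did.

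**Figure D5:**
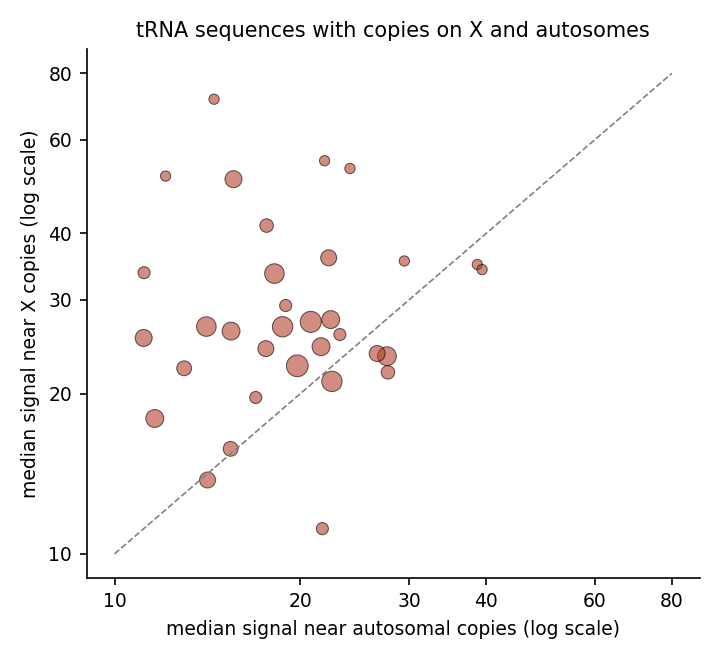
Median pooled signal of regions within 100 bp of X copies against that at autosomal copies of the same tRNA sequence (log axes, 1 point a sequence, larger points for more regions, dashed line marks equality). Of the 33 points, 25 lie above the line.

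The 5 sequences with most IDR-overlapping members show how uneven single copies were. The proline sequence of F46G11.t1 has 24 genes, 13 of them on X. Its 5 near regions on X ran from 17.1 to 126.4 and its 3 on autosomes from 10.9 to 41.9, so the ranges overlapped. The lysine sequence of C33G3.t2 has 14 genes, 5 of them on X. Its 4 near X regions ran from 10.4 to 112.2 and its 4 autosomal ones from 17.4 to 52.8, and its lowest member of all, at C25F6.t4, was on X. The glutamate sequence of M02F4.t2 (20 genes, 12 on X) had near regions of 10.8 to 103.5 on X and 11.4 to 38.3 on autosomes. The glutamine sequence of H08J11.t3 (15 genes, 9 on X) had 2 near regions on X, of 16.4 and 51.1, and 1 of 11.2 on an autosome. The alanine sequence of T07H6.t2 (8 genes, 3 on X) had 1 of each, 53.0 and 24.1. Near copies of the 1 proline sequence thus spanned 10.9 to 126.4, where the whole class spanned 10.2 to 126.4.

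By the amino acid of the nearest gene, IDR-overlapping members were spread over 16 kinds. They numbered 5 of 35 at lysine genes, 4 of 32 at glutamate, 4 of 28 at leucine and 4 of 25 at alanine genes. They numbered 1 of 36 at glycine genes, the largest group, and 0 of 27 at threonine genes. Cysteine genes had 0 of 10, though their members had the highest median signal of any amino acid (27.6). These counts are too small to order the amino acids.

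Members at clustered and at single tRNA genes did not differ in a steady direction. With genes linked where another tRNA gene starts within 2000 bp, 269 of the 612 genes (44.0%) fell into 111 clusters, 54.7% of the genes on X and 35.1% on autosomes. Members at clustered genes overlapped an IDR peak in 13 of 150 cases (8.67%) and those at single genes in 22 of 259 (8.49%), with median signals of 18.0 and 19.5. Clustered members were more often on X, and within X the counts were 10 of 90 at clustered genes (11.1%) and 19 of 106 at single ones (17.9%). On autosomes they were 3 of 60 (5.0%) and 3 of 153 (1.96%), in the opposite direction, a difference that was not tested. In the libraries, the clustered minus single percentile was −2.46, −0.37, −14.95 and 4.08 in replicates 1 to 4, a mean of −3.43 ± 8.16 (positive in 1 of 4, exact sign-flip permutation p = 0.625, adjusted 0.667). Without replicate 3 the mean was 0.42. The 5 clusters with most genes are all on X. F22F1.t2 to F22F1.t9, 8 genes for aspartate, isoleucine, methionine and serine in 4.16 kb, held 6 members with a highest signal of 34.2 and no IDR overlap. F28H6.t2 to F28H6.t7, 6 histidine genes, held 2 members of up to 22.3. The 5 arginine and cysteine genes of K01A12 and the 5 cysteine and glycine genes of R04E5 held 2 members each, of up to 29.8 and 28.6. The 5 glutamine genes of H08J11 held 1, which overlapped an IDR peak (51.1).

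The 4 lists supported members more often than other regions. A region of the library overlapped the member in all 4 libraries for 95 of the 409 (23.2%), against 11.8% of all nuclear pooled regions. It did so in 3 libraries for 144, in 2 for 110, in 1 for 51 and in none for 9. On X 56 of 196 (28.6%) had a region in all 4, and on autosomes 39 of 213 (18.3%). At least 1 library had a region among its 2000 strongest at 145 members (35.5%), against 20.1% of all nuclear regions. Of the 35 members that overlap an IDR peak, 28 were found in all 4 libraries and 7 in 3.

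Since the windows lie on tRNA genes, tRNA letters come near the summits by construction. The B box letters lay within 150 bp of the summit in 270 of 409 members (66.0%), against 6.95% of nuclear regions, and in 250 of 262 near members against 20 of 147 far ones. GC content within 100 bp had a median of 41.3%, against 34.3% elsewhere, and was 40.5% on X and 41.8% on autosomes. CAGGTG, an E-box that Snail factors are known to bind, was searched on both strands within 50 bp of the summit. It occurred in 14 of 409 members (3.42%) and in 2.14% of nuclear regions, and in 2 of the 35 members that overlap an IDR peak. A match or its absence here is only a statement about letters in a window.

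Because tRNA genes repeat, reads from them can be hard to place. Of the 32-base words within a member, a median of 84.98% occurred once in the nuclear genome, 84.7% on X and 85.6% on autosomes, while other regions had a median of 100%. All words were unique in 114 members (27.9%), against 88.2% of all nuclear regions. Of these 114 members 7 (6.14%) overlapped an IDR peak, where 4.45% of all nuclear regions did. Under 80% of words were unique in 8.56% of members, 10.7% on X and 6.57% on autosomes, against 1.82% of all nuclear regions. Among the 35 members that overlap an IDR peak, 7 (20%) were under 80%. The sources used here do not say whether the authors kept reads with several placements, and the part of placement in these signals was not tested. Some windows coincide with protein-coding promoters: 98 members (24.0%) lay in a window of the same size at the 5′ end of any protein-coding transcript, against 32.2% of all nuclear regions. Of the 98, 7 (7.14%) overlapped an IDR peak, against 28 of the 311 outside (9.003%). For 298 members the nearest 5′ end of any gene other than a piRNA gene was that of a tRNA gene. For 82 it was that of a gene annotated as ncRNA and for 25 that of a protein-coding gene. Among the 35 members that overlap an IDR peak, it was that of a tRNA gene for 23 and of an ncRNA gene for 10. A snoRNA gene and a protein-coding gene were nearest for 1 each.

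Other short RNA genes had strong regions too. In windows of the same size, snoRNA genes had 198 pooled regions of which 30 (15.2%) overlapped an IDR peak, snRNA genes 43 with 8 (18.6%), and protein-coding genes 6718 with 383 (5.70%). Median library percentiles were 69.2 ± 6.54 for snoRNA, 62.8 ± 9.53 for snRNA and 53.2 ± 1.08 for protein-coding windows (SD, n = 4), beside 64.5 ± 0.73 for tRNA windows, so the 3 RNA classes overlapped. Within 100 bp of the 5′ end lay 23.6% to 34.2% of snoRNA and 20.8% to 35.0% of snRNA regions over the libraries, below the 40.2% to 44.1% of tRNA regions in each, a difference that was not tested.

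Protein-coding genes that act on tRNAs held 1 IDR summit, too few to compare with a background rate. Of 50 genes listed, 49 were found in the annotation. A pooled summit lay in the promoter window of 25 of the 49 and an IDR summit in that of 1, where 36.7% and 2.61% of protein-coding genes had one. The pooled share was thus above that of all protein-coding genes, a difference that was not tested. The 16 genes of RNA polymerase III and its factors had 5 pooled and 0 IDR summits, and the strongest was at tftc-1 (39.3), which encodes a TFIIIC subunit. Of 21 cytosolic aminoacyl-tRNA synthetases, the enzymes that load tRNAs with amino acids, 20 were found in the annotation. Of these 20, 12 had a pooled and 0 an IDR summit, with gars-1, the glycine enzyme, highest at 43.0. Of 13 processing and modification genes, 8 had a pooled summit. The 1 IDR summit was that of popl-1, which encodes a subunit of RNase P, the enzyme that trims the 5′ end of tRNA precursors. It lay 974 bp upstream of the gene (III:6431736-6432079, pooled signal 66.9) and ranked 199, 306, 10994 and 1120 in replicates 1 to 4.

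At the edges of the window, the 6 members in the outermost 50 bp upstream had a median signal of 18.7, and the 5 regions in the next 50 bp outside had one of 16.7. Downstream, the values were 12.9 for 17 members and 14.2 for 8 regions outside. Of the members, 342 lay in 1 tRNA window, 57 in 2 and 10 in 3.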

How the data were processed

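ChIP-seq peak lists of 4 biological replicates, separate samples by the labels, were analysed as 1 group. Whether they came from separate cultures is not stated, so p-values measure the spread between these samples. Lists deposited by the authors were taken unchanged: 1 per library, a pooled list and an IDR list, in ce11. Signal values are the authors' own score per region, deposited with no stated scale, and serve only to describe, rank or filter regions within a list. Per the file records every library was compared with the same control, which was not used here. The sources used here name no aligner, no peak caller and no settings, and do not say how reads with several placements were treated. Read counts are unknown, so depth and counting error are too. Each library list holds 30000 regions, and 99.6% of pooled regions are 344 bp wide. No list has a per-sample column left unused (0 columns).

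Genes came from Ensembl release 115 (WBcel235), and amino acids (607 of 612 tRNA genes) and sequences from RefSeq for the same build. Where a region lay in several windows, the nearest 5′ end named it. Percentiles and ranks were computed among the nuclear regions of a library. A near region has its summit within 100 bp of a tRNA gene body. Tests were exact sign-flip permutation tests over 4 libraries and, for the pairs with different labels, an exact permutation test, all two-sided, at a threshold of 0.05. Steps were checked on simulated data. Named were the 25 strongest IDR-overlapping members, the 5 largest clusters, up to 5 sequences with most IDR-overlapping members and each listed gene with an IDR summit. Other names (members beside the IDR cut, in all 4 top lists, autosomal or least similar between libraries, and the strongest listed genes) were chosen after their values were seen. Members and lists were chosen with earlier results of these data known. The contrasts of copies of shared sequences, of X and autosomes among the 2000 strongest regions, and of tRNA and protein-coding windows were added after the data were seen. Python 3.11.15 with numpy 2.4.6, pandas 2.3.3, scipy 1.17.1 and matplotlib 3.10.9 was used.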

Additional observations from a re-analysis of the deposited data

Results flagged for a closer look

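In 37 sets of 4 library values, those of the 9 tests, of the library summaries and of the named members found in all 4 libraries, 1 library was looked for that stood far from the others. For members the value was the signal divided by the median of that library's nuclear regions. Replicate 2 stood apart in 3 sets. At C42D8.t1 (tRNA-Ile, X) replicate 2 had 1.18 times the library median, below the other 3 libraries. At T28D6.t2 (tRNA-Val, III) it had 5.09 times and at C06E4.t1 (tRNA-Gln, IV) 4.94 times, above the others. Chance flags about 1 in 20 groups of 4.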

How the results depend on the processing

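Of 70 recomputed values, 60 kept their direction and stayed within their limits. The positive differences of tRNA windows, near regions and X kept their sign under every alternative run, and the narrower window of 500 bp upstream to 100 bp downstream changed none of those it was run for. Leaving out 1 library gave 1.44 to 1.83 for the tRNA share of the 2000 strongest, 14.4 to 15.0 for the tRNA percentile and 18.6 to 20.4 for near regions. For X it gave 9.62 to 11.8, for copies of shared sequences 8.67 to 12.8, and for X among the 2000 strongest 10.5 to 15.3. The range was 21.1 to 23.0 for closeness to the 5′ end, −5.93 to 0.42 for clustered genes and −0.0013 to 0.175 for the pairs with different labels. The last 2 reversed without replicate 3, and the difference between these pairs was −0.35 among the 2000 strongest regions. Members overlapping an IDR peak fell to 2.82% with X left out, against 4.18% of all autosomal regions. They fell to 2.93% with only the IDR peaks of at least median signal, against 2.16% of all nuclear regions. Support in all 4 libraries fell from 95 members to 26 with summits within 100 bp and to 33 with the 10000 strongest regions, and ranged from 118 to 154 with 3 libraries (154 without replicate 3). The B box share was 38.4% within 75 bp, and with the narrower window 0 listed genes had an IDR summit. Alternatives on word uniqueness, protein-coding windows, same summit, other regions on X, near summits and single genes were added after the data were seen. No paired analysis was possible because there is 1 group. Without read counts, a region missing from a list cannot be read as unbound, and with no untagged strain among the samples, signal of the tagged protein and signal from other sources at tRNA genes cannot be told apart.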
